A study of Homo sapiens with 8 samples.

Results

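ACO1, BTG2, CMTM4, SLIT2 and WDFY2 are 5 protein-coding genes that have each been described as restraining tumour growth in some setting, and their RNA was followed through a microRNA pulldown in 786-0 cells, an established human line that came from a renal tumour of the clear cell type. They were taken by Ensembl ID from a table of 60666 gene IDs (ENSG00000122729 for ACO1, ENSG00000159388 for BTG2, ENSG00000183723 for CMTM4, ENSG00000145147 for SLIT2 and ENSG00000139668 for WDFY2). All 5 passed the filter on low counts, as did 17351 genes in all. The labels do not say how the genes came to attention. They were listed with results of these data known and may have been picked on these libraries, so their direction with miR-2355 is not independent evidence.

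All groups were 786-0 cells kept in high-glucose medium with serum and transfected for 48 hours with a biotinylated duplex. The groups were 2 libraries with miR-2355 (miR-2355-5p in the design text), 3 with miR-1271 (miR-1271-5p) and 3 with a control microRNA whose sequence the labels do not give. The design text speaks of triplicates, and only 2 miR-2355 libraries were analysed here. RNA bound to the biotinylated microRNA was recovered and sequenced to find candidate targets of both microRNAs. RNA from before the pulldown was not used here, so every level is a share of the RNA recovered. Whether an RNA changed in the cells or in its recovery cannot be told apart. Total counts were 18637410 and 14924700 reads with miR-2355, 10358878 to 13119672 with miR-1271, and 22864693, 4122875 and 20722317 with the control. Nothing in the labels says that the libraries of a group are separate cultures. The p-values then rest on a spread between libraries that may be technical. Cell line markers were not checked because the IDs of the table are not paired with symbols here.

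A microRNA guides an Argonaute protein to messenger RNAs, mostly through pairing of its seed, bases 2 to 8 counted from the 5′ end, with a complementary stretch of the target. Targets bound in this way are usually translated less and degraded sooner, and a biotin tag on the microRNA lets bound RNA be captured on streptavidin. Genes that slow growth are of interest as targets of a microRNA that is raised in a tumour, because its binding would lower them.

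The sequences of the pulled-down microRNAs are shown because the seed is the part expected to choose the RNA. The partner strand of each natural hairpin is shown too, and whether the transfected duplexes carried it was not tested. miR-96-5p is added because it shares a seed with miR-1271-5p. All are RefSeq sequences on GRCh38.p14, 5′ to 3′, with the seed in capitals. MIR2355 lies on the minus strand, with the 5p strand at chr2:207110043-207110063, and MIR1271 on the plus strand, with the 5p strand at chr5:176367960-176367981.
miR-2355-5p: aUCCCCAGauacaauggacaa
miR-2355-3p: aUUGUCCUugcuguuuggagau
miR-1271-5p: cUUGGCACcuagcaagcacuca
miR-1271-3p: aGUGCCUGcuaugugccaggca
miR-96-5p: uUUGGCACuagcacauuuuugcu

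The seed of miR-2355-5p (UCCCCAG) pairs with CUGGGGA and that of miR-1271-5p (UUGGCAC) with GUGCCAA. The 2 seeds carry the same letter at 3 of 7 positions. Among the RefSeq entries searched here, no other mature microRNA had the seed of miR-2355-5p. The search did not cover every chromosome, so whether the entries left out share that seed was not tested. Transcript sequences of the 5 genes were not used here, so whether they carry these stretches was not tested.

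All 5 genes passed the test as higher in the miR-2355 pulldown than with the control. With miR-1271 all 5 had a positive log2 fold change over control, as did 50.4% of all tested genes, and 4 of the 5 passed. In miR-2355 against control, log2 fold changes ran from 0.55 to 1.68 with a median of 0.99, where the median of all tested genes was -0.0046. BTG2 had the largest of these in the reported fit and under all 16 alternatives. WDFY2 had the smallest in the reported fit, but not at equal depth (0.72, against 0.57 for SLIT2). Among all tested genes 12.3% were called higher and 17.5% lower at an adjusted p under 0.05 (edgeR quasi-likelihood test, Benjamini-Hochberg over all genes). In 24.9% of tested genes both miR-2355 libraries lay above all 3 controls, as they did for all 5 genes here. In miR-1271 against control, the log2 fold changes of the 5 genes ran from 0.47 to 0.96 with a median of 0.67, where the median of all tested genes was 0.0055. Of all tested genes 17.6% were called higher and 22.5% lower in that comparison, and 23.1% had every miR-1271 library above every control, as 4 of the 5 genes did. Both comparisons use the same 3 control libraries and are not independent.

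**Figure D1:**
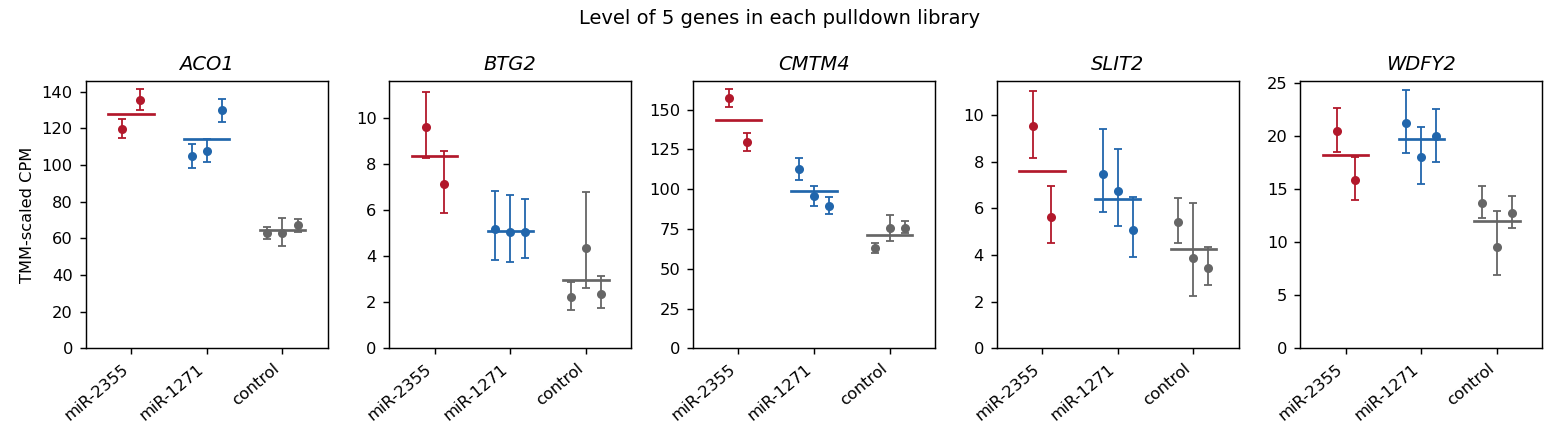
Level of each gene in TMM-scaled CPM (reads relative to the library's scaled total), 1 point per library, with exact 95% Poisson intervals that cover counting error only and a horizontal line at each group's mean. ACO1, BTG2, CMTM4 and WDFY2 have all 5 microRNA libraries above the highest control, and SLIT2 has 4 of 5. Taken alone, the miR-2355 libraries lay above all controls in 24.9% of tested genes and the miR-1271 libraries in 23.1%. The share of tested genes with both was not counted.

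BTG2 belongs to the BTG/TOB family of antiproliferative proteins, is induced by p53 and binds the CCR4-NOT deadenylase, which shortens poly(A) tails. It lies on chromosome 1 at 203305519 to 203309602 (GRCh38.p14), with no other RefSeq gene overlapping it. Its level was 9.61 and 7.12 CPM in the miR-2355 libraries, 5.17, 5.05 and 5.07 CPM in the miR-1271 libraries, and 2.21, 4.33 and 2.38 CPM in the controls. The 3 groups did not overlap, with miR-2355 highest and the control lowest. Reads numbered 180 and 111 with miR-2355, 50, 51 and 64 in the miR-1271 libraries, and 52, 19 and 51 in the controls.

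Against the control, BTG2 rose 3.20-fold with miR-2355 (log2 fold change 1.68, standard error 0.25, edgeR adjusted p = 0.000115). The 95% interval of that fold was 2.20 to 4.66. Only 106 tested genes had a larger log2 fold change in that comparison. Against the same controls, BTG2 rose 1.95-fold with miR-1271 (log2 fold change 0.96, standard error 0.25, edgeR adjusted p = 0.00627), but not past the threshold at equal depth (0.82, adjusted p = 0.0862). The control level rests on few reads, and control replicate 2, the shallowest library, had the highest value with a counting interval of 2.61 to 6.77 CPM. That interval covers the BTG2 value of every miR-1271 library, so the gap between the control and miR-1271 groups lies within counting error.

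CMTM4 is a membrane protein of the CMTM family, whose members span the membrane several times. Its relative CMTM6 is known for keeping PD-L1 on the cell surface, and CMTM4 has been described as able to do so too. The gene lies on chromosome 16 at 66598178 to 66696743 and its RefSeq span overlaps that of CMTM3. The strand setting of the counting is not given in the sources used here, so reads of the overlap cannot be assigned with certainty. The level of CMTM4 was 157 and 129 CPM with miR-2355, 112, 95.5 and 89.5 CPM in the miR-1271 libraries, and 63.2, 75.5 and 75.9 CPM with the control. As for BTG2, the groups did not overlap, with miR-2355 highest, miR-1271 next and the control lowest. That order without overlap held in 2.07% of all tested genes.

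CMTM4 rose 2.01-fold with miR-2355 over control (log2 fold change 1.01, standard error 0.14, edgeR adjusted p = 5.14e-05; 95% interval of the fold 1.64 to 2.47). Its rise with miR-1271 was 1.39-fold (log2 fold change 0.47, standard error 0.13, edgeR adjusted p = 0.00775; 95% interval of the fold 1.15 to 1.68). The smaller rise did not pass with library totals alone (0.32, adjusted p = 0.0587) or without miR-1271 replicate 1 (0.39, adjusted p = 0.0512).

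ACO1 is the cytosolic aconitase, which turns citrate into isocitrate while it holds an iron-sulfur cluster and, without the cluster, becomes iron regulatory protein 1 and binds iron-responsive elements in messenger RNAs. It lies on chromosome 9 at 32384643 to 32454769, with no overlapping RefSeq gene. Its level was 120 and 136 CPM with miR-2355, 105, 108 and 130 CPM in the miR-1271 libraries, and 62.8, 63.0 and 67.1 CPM with the control. The controls lay close together, and the 5 microRNA libraries lay well above them while overlapping each other. The fold over control was 1.98 with miR-2355 (log2 fold change 0.99, standard error 0.13, edgeR adjusted p = 2.7e-05) and 1.77 with miR-1271 (log2 fold change 0.83, standard error 0.12, edgeR adjusted p = 4.49e-05). Both rises passed under all 16 alternative settings run.

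WDFY2 carries a FYVE domain and WD repeats, sits on early endosomes and has been described to bind AKT2 there in mouse adipocytes. Its gene, on chromosome 13 at 51584462 to 51767709, overlaps 5 other RefSeq entries. The level was 20.5 and 15.9 CPM with miR-2355, 21.2, 18.0 and 19.97 CPM in the miR-1271 libraries, and 13.7, 9.58 and 12.8 CPM with the control. Both microRNA groups lay above the controls and overlapped each other. WDFY2 rose 1.47-fold with miR-2355 over control (log2 fold change 0.55, standard error 0.17, edgeR adjusted p = 0.0234) and 1.59-fold with miR-1271 (log2 fold change 0.67, standard error 0.16, edgeR adjusted p = 0.00336).

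The rise of WDFY2 with miR-1271 passed under all 16 alternatives. The rise with miR-2355 did not pass without control replicate 2 (0.46, edgeR adjusted p = 0.0505) or without control replicate 3 (0.58, edgeR adjusted p = 0.0541). Without miR-2355 replicate 1, which leaves 1 library in that group, the log2 fold change fell to 0.38.

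SLIT2 is a secreted ligand of the Robo receptors, first known for repelling growing axons and often silenced by promoter methylation in tumours. It lies on chromosome 4 at 20251905 to 20620561, and its span overlaps the RefSeq entries MIR218-1 and SLIT2-IT1. Its level was 9.51 and 5.64 CPM with miR-2355, 7.45, 6.73 and 5.07 CPM in the miR-1271 libraries, and 5.39, 3.88 and 3.45 CPM with the control. The lower miR-2355 library stood 1.05-fold above the highest control, and 1 miR-1271 library lay below that control. Reads were few, at 178 and 88 with miR-2355, 72, 68 and 64 in the miR-1271 libraries, and 127, 17 and 74 with the control.

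The rise of SLIT2 with miR-2355 over control was 1.76-fold (log2 fold change 0.81, standard error 0.27, edgeR adjusted p = 0.0296; 95% interval of the fold 1.19 to 2.59). Among the settings that ended the call were leaving out miR-2355 replicate 1 (0.40, adjusted p = 0.448), leaving out control replicate 3 (0.63, adjusted p = 0.141) and thinning to equal depth (0.57, adjusted p = 0.238). With miR-1271 the fold over control was 1.47 and missed the threshold (log2 fold change 0.55, standard error 0.26, edgeR adjusted p = 0.0948), though it passed, among other settings, without control replicate 1 (0.83, adjusted p = 0.029).

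**Figure D2:**
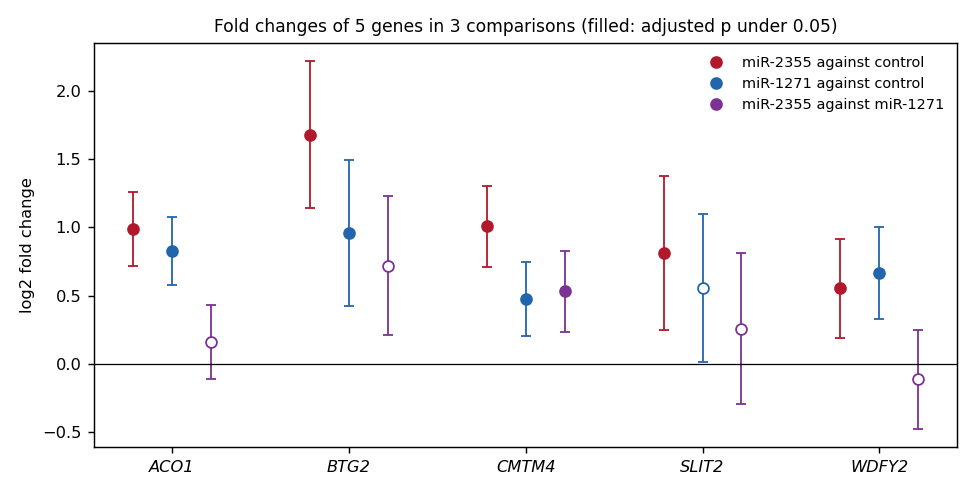
Log2 fold change of each gene (vertical axis) in the 3 comparisons, with approximate 95% intervals from the edgeR fit. Filled points have an adjusted p under 0.05: all 5 genes in miR-2355 against control, 4 in miR-1271 against control and CMTM4 in miR-2355 against miR-1271.

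Set directly against each other, the pulldowns differed past the threshold in CMTM4 alone of the 5 genes. CMTM4 was 1.45-fold higher with miR-2355 than with miR-1271 (log2 difference 0.53, standard error 0.14, edgeR adjusted p = 0.0339; 95% interval of the fold 1.18 to 1.78). Of all tested genes 3.5% were called higher and 2.65% lower with miR-2355 in this comparison, and 1.45% were called higher with miR-2355 than in both other groups, as CMTM4 was. The call was lost under 6 of the 16 alternatives. Among them were leaving out miR-1271 replicate 2 (0.51, edgeR adjusted p = 0.104) or 3 (0.47, edgeR adjusted p = 0.129), and equal depth (0.51, edgeR adjusted p = 0.066). The 6 include leaving out miR-2355 replicate 1 (0.40) or 2 (0.67), each of which leaves 1 library in that group.

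BTG2 showed the largest difference of the 5 genes between the pulldowns, 1.65-fold, and missed the threshold (log2 difference 0.72, standard error 0.24, edgeR adjusted p = 0.0859; 95% interval of the fold 1.16 to 2.34). It passed with library totals alone (0.84, adjusted p = 0.0382), with no low-count filter (0.76, adjusted p = 0.0397), in a fit of the compared groups alone (0.72, adjusted p = 0.0378) and without control replicate 2 (0.72, adjusted p = 0.0426). In both BTG2 and CMTM4 the miR-2355 libraries lay above all 6 others, as in 8.07% of all tested genes. Above the miR-1271 libraries alone they lay in 21.1% of tested genes.

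For ACO1, SLIT2 and WDFY2 no difference between the pulldowns was detected. ACO1 stood at 1.12-fold with miR-2355 relative to miR-1271 (95% interval 0.925 to 1.35, edgeR adjusted p = 0.497), and its log2 difference of 0.16 became 0.070 when replicate 2 of the miR-2355 group was left out, 0.26 when replicate 1 of that group was, and 0.27 when replicate 3 of the miR-1271 group was. SLIT2 stood at 1.20-fold, with a wide interval of 0.813 to 1.76 (edgeR adjusted p = 0.606), and its log2 difference of 0.26 turned to -0.17 without miR-2355 replicate 1. WDFY2 stood at 0.925-fold (95% interval 0.719 to 1.19, edgeR adjusted p = 0.747), and its log2 difference of -0.11 turned to 0.06 without miR-2355 replicate 2 and to 0.0085 with library totals alone. The intervals leave room for differences of these sizes, and do not show that the pulldowns recovered the 3 RNAs alike.

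**Figure D3:**
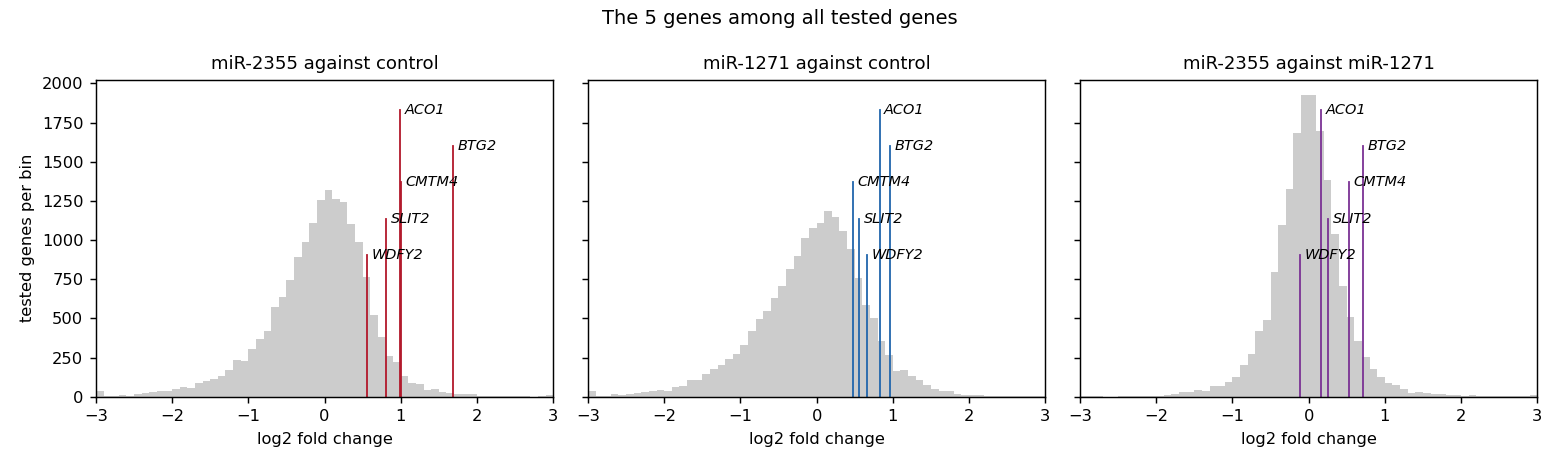
Number of tested genes (vertical axis) per 0.1 of log2 fold change (horizontal axis, values beyond the axis gathered in the end bins) in each comparison, with a line at each of the 5 genes. The 5 lines lie right of the centre in both comparisons with the control, and around it for ACO1, SLIT2 and WDFY2 in miR-2355 against miR-1271.

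Set among all tested genes in miR-2355 against control, BTG2 had a log2 fold change above that of 99.4% of them, CMTM4 above 96.8%, ACO1 above 96.6%, SLIT2 above 94.2% and WDFY2 above 86.9%. In miR-1271 against control the same shares were 94.7% for BTG2, 92.2% for ACO1, 87.6% for WDFY2, 83.5% for SLIT2 and 79.6% for CMTM4. Calls of a rise depend on abundance, so the share called among genes of like abundance is given too. ACO1 and CMTM4 fell in the most abundant quintile of tested genes, where 21.6% were called higher with miR-2355 and 30.7% with miR-1271. BTG2 and SLIT2 fell in the quintile next to the least abundant, where 6.20% and 10.8% were called higher, and WDFY2 in the middle quintile, where 10.9% and 15.7% were.

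The libraries of a group differed in several genes by more than counting error computed as if reads were independent. Within the miR-2355 group, replicate 1 exceeded replicate 2 by 1.68-fold for SLIT2 (exact 95% interval 1.30 to 2.20, counting error only), 1.35-fold for BTG2 (1.06 to 1.73), 1.29-fold for WDFY2 (1.10 to 1.52) and 1.21-fold for CMTM4 (1.15 to 1.28). ACO1 ran the other way, with replicate 2 above replicate 1 by 1.13-fold (1.07 to 1.20). Within the miR-1271 group, the ratio of the highest library to the lowest was 1.47 for SLIT2 (1.03 to 2.09) and 1.26 for CMTM4 (1.15 to 1.37). It was 1.24 for ACO1 (1.14 to 1.34), 1.18 for WDFY2 (0.959 to 1.45) and 1.02 for BTG2 (0.680 to 1.54). Among the controls the ratio was 1.96 for BTG2 (1.10 to 3.38), 1.56 for SLIT2 (1.17 to 2.11) and 1.43 for WDFY2 (1.04 to 2.03). For CMTM4 it was 1.20 (1.12 to 1.29) and for ACO1 1.07 (0.993 to 1.15). In the miR-1271 and control groups the highest and lowest libraries were picked by value, which favours a large ratio. Their intervals make no allowance for that choice.

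Over the 8 libraries, which share depth, scaling and the group differences above, the log2 CPM of the 5 genes correlated positively in all 10 pairs. Pearson's r ran from 0.55 for BTG2 with WDFY2 to 0.92 for BTG2 with CMTM4, as a description over 8 points. Among 13505 other tested genes with a mean log2 CPM of at least 1, the ID most like CMTM4 was ENSG00000119402 (r = 0.992), and the ID most like BTG2 was ENSG00000183604 (r = 0.978). No table used here pairs these IDs with a symbol. They head the lists of the 3 IDs most like each of the 5 genes, and these 2 lists were chosen after the values were seen, as those of the genes that ordered all 3 groups. ENSG00000119402 had log2 fold changes over control of 0.81 in the miR-2355 and 0.38 in the miR-1271 comparison, and ENSG00000183604 had 0.68 and 0.35. Such patterns were common: r exceeded 0.9 for 217 genes with CMTM4, 213 with BTG2, 364 with ACO1, 471 with WDFY2 and 45 with SLIT2.

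**Figure D4:**
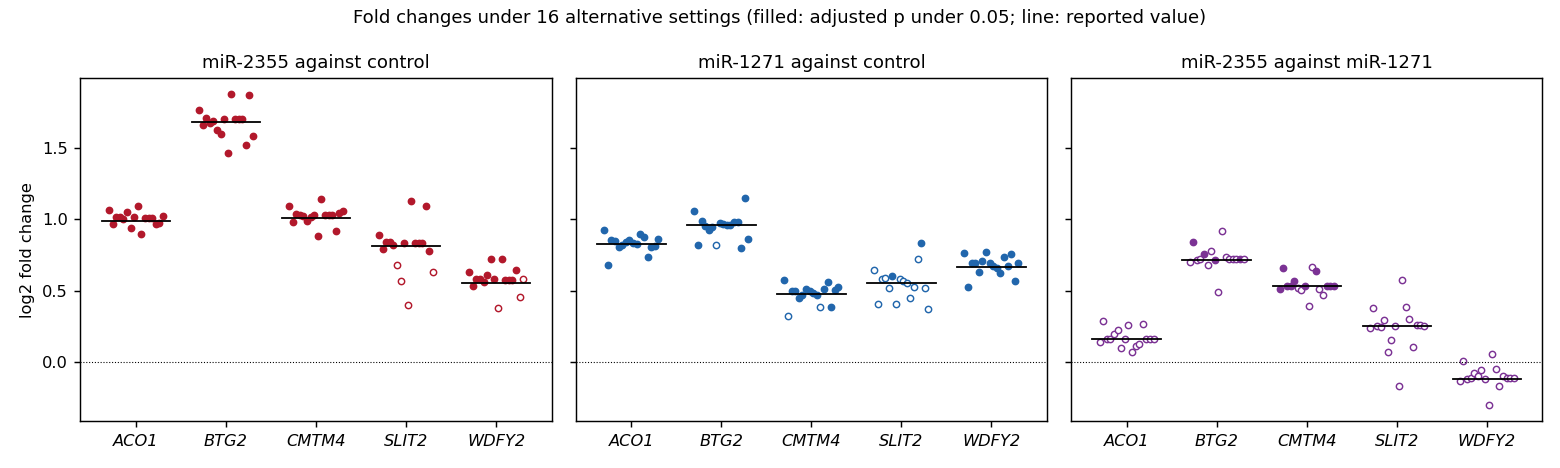
Log2 fold change of each gene (vertical axis) under 16 alternative settings, in order from other scalings and tools to leaving out each library, with a black line at the reported value. Filled points have an adjusted p under 0.05; of the 5 genes in miR-2355 against control, SLIT2 spreads most, from 0.40 to 1.13.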

How the data were processed

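The authors deposited raw read counts per Ensembl gene ID, 1 column per library and not normalized. The submitters' processing notes name BWA, featureCounts, hg38 and GRCh38. Not given in the sources used here are versions, annotation release, strand setting and the handling of multi-mapping reads. BWA is not a spliced aligner, so reads over exon junctions can be lost.

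The counts were fitted with edgeR 4.0.16 in R 4.3.3: filterByExpr left 17351 genes and at least 99.78% of each library's reads, TMM set the scaling, and the quasi-likelihood fit took all 8 libraries with a mean for each group. A gene was called at an adjusted p (Benjamini-Hochberg, over all tested genes) under 0.05. Levels are TMM-scaled CPM. Standard errors are the log2 fold change over the square root of F, and 95% intervals use them with the fit's t quantile, so both are approximate. Poisson and binomial intervals hold for counting error alone, because without molecular identifiers reads are not independent molecules. The procedure was tested on simulated data.

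Alternatives were other scalings, DESeq2 1.42.0, no filter, the compared groups alone, 1 random thinning to equal depth, the replicate number as a block, and leaving out each library. Leaving out a miR-2355 library leaves 1 in that group, so the spread in those fits comes from the other groups alone. Replicate pairs differed by more than independent reads would (chi-square per degree of freedom 6.21 to 21.9), so none was merged. The 5 genes and all lists were chosen with earlier results of these data known. The rule named all 5 genes with every library's value, and the 3 genes most like each by correlation where a table gave their symbols, which none did. The planned lists of partner genes and cell markers were not run, because 0 Ensembl IDs of the table could be matched to symbols. Coordinates and microRNA sequences are RefSeq's on GRCh38.p14. Symbols of the 5 genes came with their IDs.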

Additional observations from a re-analysis of the deposited data

Results flagged for a closer look

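The level of CMTM4 in the recovered RNA differed between the 2 pulldowns, with a log2 difference of 0.53 (miR-2355 minus miR-1271, edgeR adjusted p = 0.0339). Both miR-2355 libraries lay above all 3 miR-1271 libraries, as in 21.1% of tested genes. Among the alternatives that kept both miR-2355 libraries, the edgeR or DESeq2 adjusted p ran from 0.00713 to 0.129. Of all 16 alternatives 6 did not pass, including both that kept a single miR-2355 library. No group held enough libraries to look for a single library far from the rest.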

How the results depend on the processing

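For the 5 genes in 3 comparisons, 215 of 240 alternative values kept direction and side of the threshold, 16 no longer passed, 6 newly passed and 3 changed sign. Against the control no sign changed. The cause of the changes was not tested.

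No sign was seen that the replicate numbers pair the libraries. Deviations from the group mean correlated at -0.10 to 0.02 for same-numbered libraries and at -0.097 to 0.10 for differently numbered ones. In groups this small such deviations mirror each other, so the check cannot exclude a pairing. With the replicate block, log2 fold changes were 0.68 (not passing) and 0.60 (newly passing) for SLIT2 with miR-2355 and miR-1271 over control and 0.52 for CMTM4 in miR-2355 against miR-1271 (not passing), and 320 genes were higher and 217 lower in miR-2355 against miR-1271, where the reported fit gave 608 and 459. At equal depth, SLIT2 with miR-2355 (0.57), BTG2 with miR-1271 (0.82) and CMTM4 between the pulldowns (0.51) did not pass, and 385 and 274 genes differed between the pulldowns. Library totals alone shifted the median over all tested genes by -0.15 in miR-1271 against control and 0.13 between the pulldowns (log2). With them CMTM4 with miR-1271 (0.32) did not pass, BTG2 between the pulldowns (0.84) did, WDFY2 there turned to 0.0085, 1896 genes were higher with miR-1271 (3062 reported), and 1252 were higher and 261 lower between the pulldowns. BTG2 between the pulldowns also passed without the filter (0.76; 930 genes higher) and in the compared groups alone (0.72; 970 and 902 genes).

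Leaving out 1 library gave 0.40 to 1.13 for SLIT2 and 0.38 to 0.72 for WDFY2 with miR-2355, and 0.39 to 0.56 for CMTM4 and 0.37 to 0.83 for SLIT2 with miR-1271. Between the pulldowns it gave 0.49 to 0.92 for BTG2, 0.40 to 0.67 for CMTM4, -0.17 to 0.58 for SLIT2 and -0.30 to 0.058 for WDFY2. Genes called with miR-2355 over control numbered 760 to 2241 higher (2127 reported) and 1569 to 3000 lower (3044 reported), lowest without miR-2355 replicate 1. Between the pulldowns they numbered 154 to 915 and 70 to 785, lowest without miR-2355 replicate 2 and highest without control replicate 1. BTG2 and SLIT2 had the fewest reads of the 5 genes in control replicate 2, at 19 and 17.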
